A study of Homo sapiens with 4 samples.

Results

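A set of 10 genes of the tumour necrosis factor (TNF) superfamily were followed in LM2 cells, a lung metastatic clonal line derived from the mesenchymal breast cancer line MDA-MB-231, with and without knockdown of the splicing regulator hnRNPM. The 10 members are 4 ligands (TNFSF4, TNFSF9, TNFSF10 and TNFSF15) and 6 receptors (TNFRSF10A, TNFRSF10B, TNFRSF11B, TNFRSF12A, TNFRSF21 and FAS). They were taken by symbol from a table of 36525 genes, and all 10 were present. The list names no threshold, but it was drawn up with results of the comparison between knockdown and control known. The members' differences are therefore given as descriptions, without p-values. The 4 libraries comprise 2 of control cells and 2 of hnRNPM knockdown cells, all collected 48 h after plating in serum-supplemented DMEM. The silencing agent is an shRNA in the growth protocol and an siRNA in the treatment label, and its sequence and the control agent are not stated. Separate cultures are not stated in the labels, so every SD reflects the spread between 2 samples a group, and that spread may be technical. Each SE and p-value of the linear fit (limma) rests on that spread pooled over genes of similar level, not on the gene's own.

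TNF superfamily ligands are mostly membrane proteins that act as trimers, and they bind receptors with cysteine-rich extracellular repeats. Receptors with a cytoplasmic death domain, such as FAS and the TRAIL receptors TNFRSF10A and TNFRSF10B, recruit FADD and caspase-8 and can start apoptosis. Receptors without one recruit TRAF adaptors and mainly activate NF-κB and MAP kinases, and decoy receptors bind ligand without passing on a death signal. Most of the ligands are best known from immune cells, where TNFSF4 and TNFSF9 costimulate T cells. FAS is also a textbook case of alternative splicing, since skipping of 1 exon gives a soluble receptor, but values per gene do not resolve isoforms.

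The targeted gene checked the labels: HNRNPM was at 88.6 and 102 RPKM (reads per kilobase of transcript, scaled to read depth) in control cells, against 11.5 and 12.95 RPKM after knockdown. The libraries held an estimated 16.5 M (shallowest) to 26.6 M reads (deepest), and replicate 2 exceeded replicate 1 by a median factor of 1.15 in control cells and 1.11 in the knockdown group. This offset touches nearly every gene and enters each SD below; ratios within a library do not contain it. The mesenchymal line markers VIM (562 to 760 RPKM), CD44 (51.1 to 71.9) and AXL (202 to 232) were high in all libraries. Of the epithelial or luminal markers, EPCAM (at most 1.25 RPKM), CDH1 (at most 0.990) and ESR1 (at most 0.0322) were low, and PGR was listed at 0. The mesenchymal CAV1 and the epithelial KRT8 and KRT18 were also on the marker list and are not given here. All 10 line markers summed to 1052 and 1222 RPKM in control cells and 1032 and 1151 RPKM after knockdown. The low epithelial markers named here thus do not speak for KRT8 and KRT18.

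Promoter sequence is shown for the 3 members with the largest upward log2 difference among those with an entry in the RefSeq promoter table (TNFSF9, TNFSF4 and TNFRSF21), and for TNFSF18, the ligand gene next to TNFSF4 whose difference exceeded that of every member. Each run is the 250 bases upstream of the RefSeq start on the gene's strand, build GRCh38.p14. The positions are TNFSF9 at chr19:6530776-6531025 (plus strand), TNFSF4 at chr1:173205533-173205782 (minus), TNFRSF21 at chr6:47309906-47310155 (minus) and TNFSF18 at chr1:173050942-173051191 (minus). Capitals mark matches to TATAAA or to the GC box GGGCGG on either strand.
TNFSF9: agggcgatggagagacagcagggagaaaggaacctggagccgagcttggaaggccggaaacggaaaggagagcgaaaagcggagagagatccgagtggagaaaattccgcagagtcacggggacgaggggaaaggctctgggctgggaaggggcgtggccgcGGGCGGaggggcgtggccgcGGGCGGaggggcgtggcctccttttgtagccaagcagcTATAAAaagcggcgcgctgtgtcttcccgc
TNFSF4: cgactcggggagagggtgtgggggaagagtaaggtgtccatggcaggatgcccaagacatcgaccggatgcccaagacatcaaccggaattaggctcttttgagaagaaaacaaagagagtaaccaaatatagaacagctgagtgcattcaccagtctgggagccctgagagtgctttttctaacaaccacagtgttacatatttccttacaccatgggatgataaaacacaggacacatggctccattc
TNFRSF21: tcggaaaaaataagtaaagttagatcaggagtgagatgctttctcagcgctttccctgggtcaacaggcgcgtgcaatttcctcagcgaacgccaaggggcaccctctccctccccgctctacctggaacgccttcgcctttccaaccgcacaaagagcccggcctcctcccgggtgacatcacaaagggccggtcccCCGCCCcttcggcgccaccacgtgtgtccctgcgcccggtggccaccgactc
TNFSF18: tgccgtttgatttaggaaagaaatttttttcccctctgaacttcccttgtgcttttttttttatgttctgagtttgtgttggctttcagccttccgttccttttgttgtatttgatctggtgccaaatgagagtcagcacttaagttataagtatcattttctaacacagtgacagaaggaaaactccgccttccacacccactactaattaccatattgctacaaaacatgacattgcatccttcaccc
Of 35116 promoters, 10.7% hold TATAAA, 42.6% GGGCGG, 6.57% the AP-1 motif TGANTCA and 9.96% the NF-κB consensus in the same window on either strand. Both strands were searched, and no matches overlap in the windows shown. The TNFSF9 window holds TATAAA and 2 GC boxes, and the TNFRSF21 window holds 1 GC box. The windows of TNFSF4 and TNFSF18 hold none of the 4 motifs, so no motif among those searched is common to all 4 promoters. Their GC content was 64.4% for TNFSF9 and 62.0% for TNFRSF21, against 48.0% for TNFSF4 and 38.8% for TNFSF18.

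Among the ligand genes, TNFSF9 and TNFSF4 were about 3 times as abundant after knockdown, and together they made up most of the ligand RPKM there. TNFSF9, which codes for the 4-1BB ligand, measured 5.13 and 5.46 RPKM in control cells against 17.6 and 18.2 RPKM after knockdown. The level was 3.38-fold higher (5.30 ± 0.233 against 17.9 ± 0.415 RPKM, SD, n = 2), and the log2 difference was 1.67 ± 0.18 (SE). Log2 differences here are knockdown minus control on the log2(RPKM + 0.5) scale, which understates changes of low genes. Both knockdown libraries lay far above both control libraries. A bulk library cannot tell more RNA per cell from more cells that express the gene.

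TNFSF4, which codes for the OX40 ligand, was at 3.40 and 4.45 RPKM in control cells and at 10.2 and 11.9 RPKM after knockdown. Its level was 2.82-fold higher (3.92 ± 0.745 against 11.1 ± 1.17 RPKM, SD, n = 2), with a log2 difference of 1.39 ± 0.18 (SE). Again the groups did not overlap, and estimated reads were 561 and 735 against 1198 and 1391 although the knockdown libraries were the shallower ones. Their receptors differ in this line: TNFRSF9, the receptor of TNFSF9, was at 0.157 and 0.136 RPKM in control cells and 0.679 and 0.694 RPKM after knockdown, whereas TNFRSF4, the receptor of TNFSF4, was at most 0.0196 RPKM in any library.

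TNFSF10, which codes for the apoptosis-inducing ligand TRAIL, was near the lower limit of expression used here, a mean of 1 RPKM over the 4 libraries. It was at 0.488 and 0.536 RPKM in control cells and at 1.17 and 0.961 RPKM after knockdown, or 71 and 78 against 121 and 99 estimated reads. That is a 2.09-fold higher mean (0.512 ± 0.0340 against 1.07 ± 0.151 RPKM, SD, n = 2), and the groups did not overlap. TNFSF15, a ligand of TNFRSF25 known from endothelial cells, was at 0.142 and 0.209 RPKM in control cells and 0.274 and 0.158 RPKM after knockdown. These values overlap, so no difference was detectable at this depth. TNFSF10, TNFSF15 and FAS lay below the limit and were not fitted, so 7 of the 10 members were.

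**Figure D1:**
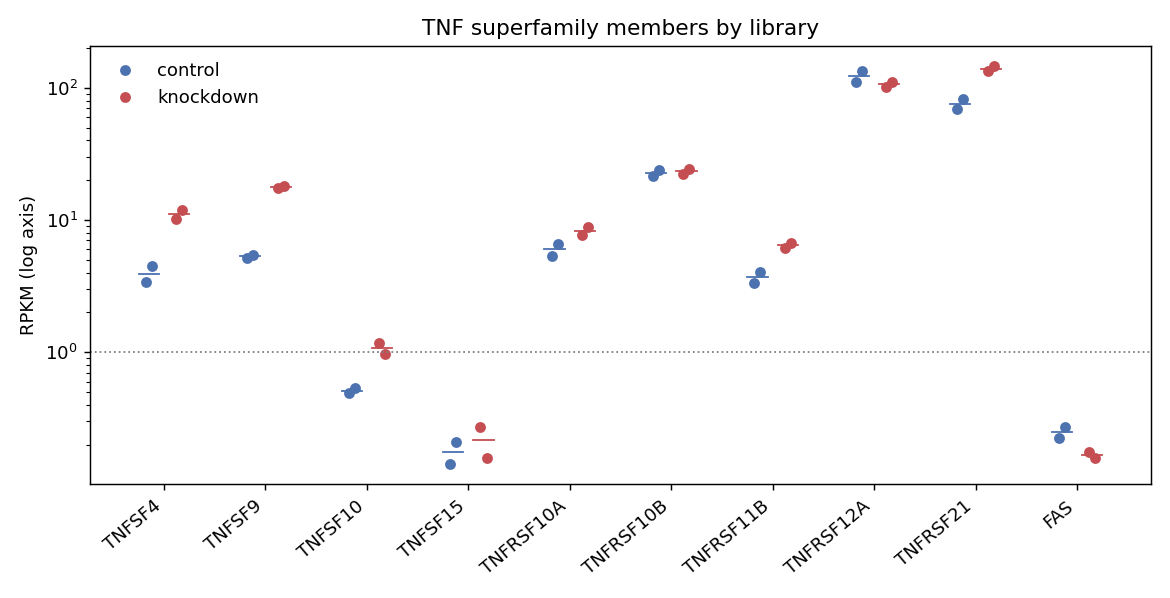
RPKM (log axis) of the 10 members in each of the 4 libraries; points are libraries, short lines are group means (n = 2) and the dotted line is 1 RPKM. TNFSF4, TNFSF9, TNFSF10, TNFRSF10A, TNFRSF11B and TNFRSF21 have both knockdown points above both control points, FAS has both below, and TNFSF15, TNFRSF10B and TNFRSF12A overlap.

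Markers of immune cells, the usual source of these ligands, were low except for 1 gene. Of 12 immune markers in the table, 11 were at most 0.241 RPKM everywhere, PRF1 was listed at 0, and PTPRC, the pan-leukocyte marker, was at most 0.0158 RPKM. The 11 summed to between 0.236 and 0.345 RPKM in control cells and 0.362 and 0.428 RPKM after knockdown. CD14 was the exception, at 1.28 and 1.44 RPKM in control cells and 5.27 and 7.13 RPKM after knockdown. It moved with the ligands, and its part in their difference was not tested.

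Within each library, the mix of ligand transcripts shifted. TNFSF9 and TNFSF4 together made up 45.6% and 46.1% of the summed RPKM of the 15 ligand genes in control cells and 70.7% and 71.2% after knockdown, and that sum was 20.1 ± 1.997 and 40.9 ± 2.03 RPKM (SD, n = 2). The ranking changed below TNFSF9, which was first in both groups. In the control group TNFSF12 (4.35 and 4.64 RPKM) came next, then TNFSF4, and the libraries of these neighbours overlapped. In the knockdown group TNFSF4 came next, followed by CD70 (3.50 and 3.53 RPKM) without overlap.

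**Figure D2:**
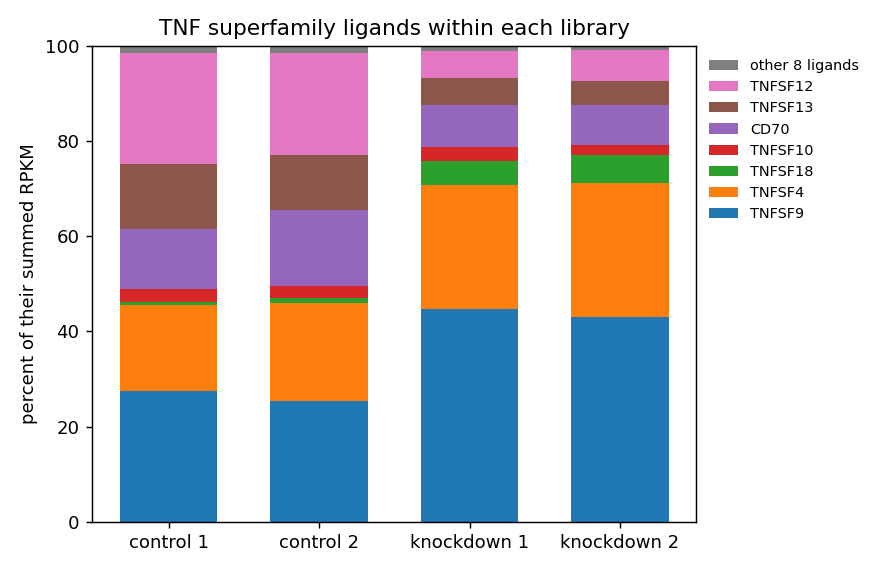
Percent of the summed RPKM of the 15 ligand genes taken by each ligand, 1 stacked bar per library. TNFSF9 took 27.5% and 25.4% in control cells and 44.7% and 43.0% in the knockdown bars, and TNFSF12 took 23.3% and 21.6% against 5.78% and 6.40%.

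TNFRSF21 was the receptor with the largest difference among the members. TNFRSF21, also called death receptor 6, has a death domain and is known from neurons and T cells. It was at 69.6 and 81.7 RPKM in control cells and at 133 and 147 RPKM after knockdown, a 1.85-fold higher mean (75.7 ± 8.55 against 140.0 ± 9.43 RPKM, SD, n = 2; log2 difference 0.89 ± 0.17, SE). The groups did not overlap. TNFRSF12A, the receptor for the ligand TWEAK (TNFSF12), was at 111 and 134 RPKM in control cells and at 102 and 112 RPKM after knockdown. Its groups overlapped, and the log2 difference of −0.19 ± 0.17 (SE) was close to its error.

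The order of these 2 most abundant receptors was therefore reversed between the groups. Within a library, TNFRSF21 was at 0.628 and 0.611 times the RPKM of TNFRSF12A in control cells and at 1.31 times in both knockdown libraries. TNFRSF21 took 24.7% and 24.6% of the summed RPKM of the 26 receptor genes in control cells and 38.5% and 38.7% after knockdown. With TNFRSF1A, the main TNF receptor, and TNFRSF10B, the pair made up 84.5% of receptor RPKM in control cells and 83.7% in the knockdown group. TNFRSF1A (36.5 and 41.6 RPKM in control cells, 32.3 and 34.7 RPKM after knockdown) and TNFRSF10B followed in both groups, and in each group the 4 receptors were separated without overlap between libraries.

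The death receptors for TRAIL differed less. TNFRSF10A (death receptor 4) was at 5.34 and 6.63 RPKM in control cells and at 7.68 and 8.79 RPKM after knockdown, a 1.38-fold higher mean with a log2 difference of 0.43 ± 0.18 (SE), and its groups did not overlap. TNFRSF10B (death receptor 5) was at 21.4 and 23.8 RPKM in control cells and 22.4 and 24.5 RPKM after knockdown. Its groups overlapped, and its log2 difference of 0.05 ± 0.17 (SE) was −0.03 without control replicate 1 and −0.01 without knockdown replicate 2. FAS was hardly expressed: it was at 0.224 and 0.2703 RPKM in control cells and 0.177 and 0.158 RPKM after knockdown, or about 40 and 48 against 22 and 20 reads. Both knockdown values were below both control values, at 1.47-fold lower on average. Its ligand gene FASLG was listed at 0 in 3 libraries and at 0.0178 RPKM in knockdown replicate 2.

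TNFRSF11B codes for osteoprotegerin, a secreted decoy that binds TRAIL and RANKL. It was at 3.36 and 4.07 RPKM in control cells and at 6.12 and 6.71 RPKM after knockdown. The mean was 1.73-fold higher (3.72 ± 0.502 against 6.42 ± 0.422 RPKM, SD, n = 2) and the log2 difference was 0.72 ± 0.18 (SE), without overlap. The gene for RANKL, TNFSF11, was at most 0.0617 RPKM in any library. The gene for its signalling receptor RANK, TNFRSF11A, was lower after knockdown, at 1.47 and 1.71 against 0.563 and 0.556 RPKM (2.84-fold, limma adjusted p = 1.74e-05). It reached the expression limit only through its control values and was not fitted once either control replicate was dropped.

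The decoys took a larger share of the TRAIL-binding receptors after knockdown, while neither death receptor gene had a lower mean. TNFRSF10D, a decoy with a truncated death domain that was not on the list of members, rose from 8.87 and 10.4 RPKM to 19.5 and 21.2 RPKM (2.12-fold, log2 fold change 1.05 ± 0.18, SE, limma adjusted p = 3.8e-08). Within a library, TNFRSF10D was at 0.415 and 0.434 times the level of TNFRSF10B in control cells and at 0.874 and 0.864 times after knockdown. Of the summed RPKM of the 5 TRAIL-binding receptors, the decoys TNFRSF10C, TNFRSF10D and TNFRSF11B took 32.4% and 32.8% in control cells and 46.7% and 45.9% after knockdown. The share of the death receptors TNFRSF10A and TNFRSF10B was 67.4% ± 0.337 against 53.7% ± 0.559 (SD, n = 2). For TNFRSF10A alone it was 14.1% ± 0.788 in control cells against 14.0% ± 0.457 after knockdown (SD, n = 2). TNFRSF10C, a decoy anchored by a lipid, contributed at most 1.44%. Their sum was 42.5 ± 4.13 and 58.9 ± 3.69 RPKM (SD, n = 2). These shares do not depend on how a library was scaled, and they are a description, since 3 of the 5 receptors are listed members. In the transcripts of GENCODE 29, 0% of the 50-base stretches of any of these 5 genes occur in another of them.

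**Figure D3:**
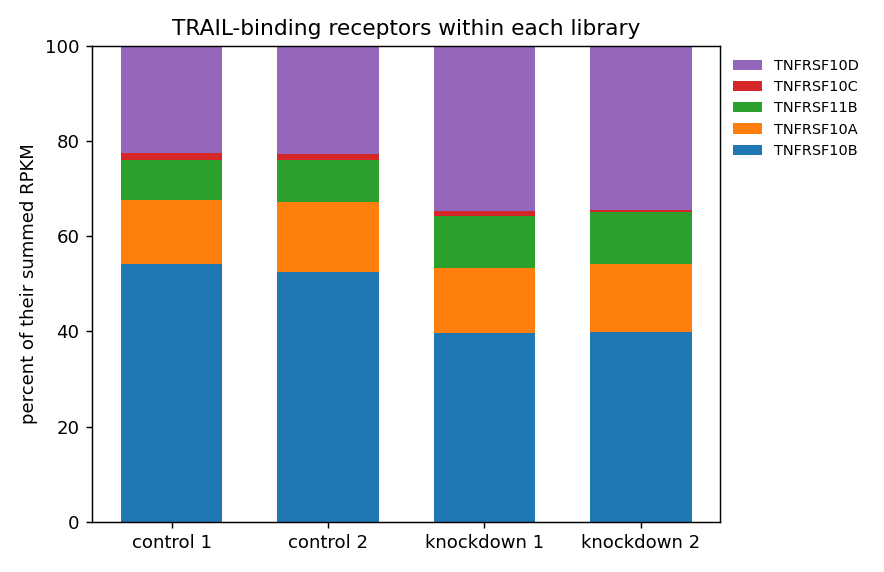
Percent of the summed RPKM of the 5 TRAIL-binding receptor genes taken by each, 1 stacked bar per library; TNFRSF10B and TNFRSF10A carry a death domain and the other 3 are decoys. TNFRSF10B took 54.1% and 52.5% in control cells and 39.7% and 39.8% in the knockdown bars, and TNFRSF10D 22.4% and 22.8% against 34.7% and 34.4%.

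Of the 7 members fitted, 5 were called higher (TNFSF4, TNFSF9, TNFRSF10A, TNFRSF11B and TNFRSF21) and 0 lower by limma, beside 14.7% of all 13627 genes fitted that were called higher and 21.8% called lower. Of all 10 members, 6 had both knockdown libraries above both control libraries and 1 had both below, beside 28.0% and 38.8% of the genes fitted. The median log2 difference was 0.53 over the 10 members and −0.07 over all genes fitted. Because the members were chosen on this comparison, these calls and shares describe the list and carry no test. TNFRSF10A had the smallest difference of the 5, at 0.43, and it was 0.29 without control replicate 1. Median-ratio scaling of the libraries, which moved the median of all genes to about 0, gave 6 called higher, TNFRSF10B (0.13) among them, and 1 lower, TNFRSF12A (−0.11). Over all genes that scaling gave 4195 higher and 4114 lower of 13613 fitted. Some exons overlap genes on the opposite strand in GENCODE 29, and no source used here says whether counting used strand: these were 7.59% of the exon bases of TNFRSF10A with TNFRSF10A-AS1, 9.01% with AC100861.1, 8.93% of those of FAS with ACTA2, 2.16% of those of TNFRSF12A with CLDN6 and 1.30% of those of TNFRSF10B with RHOBTB2.

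**Figure D4:**
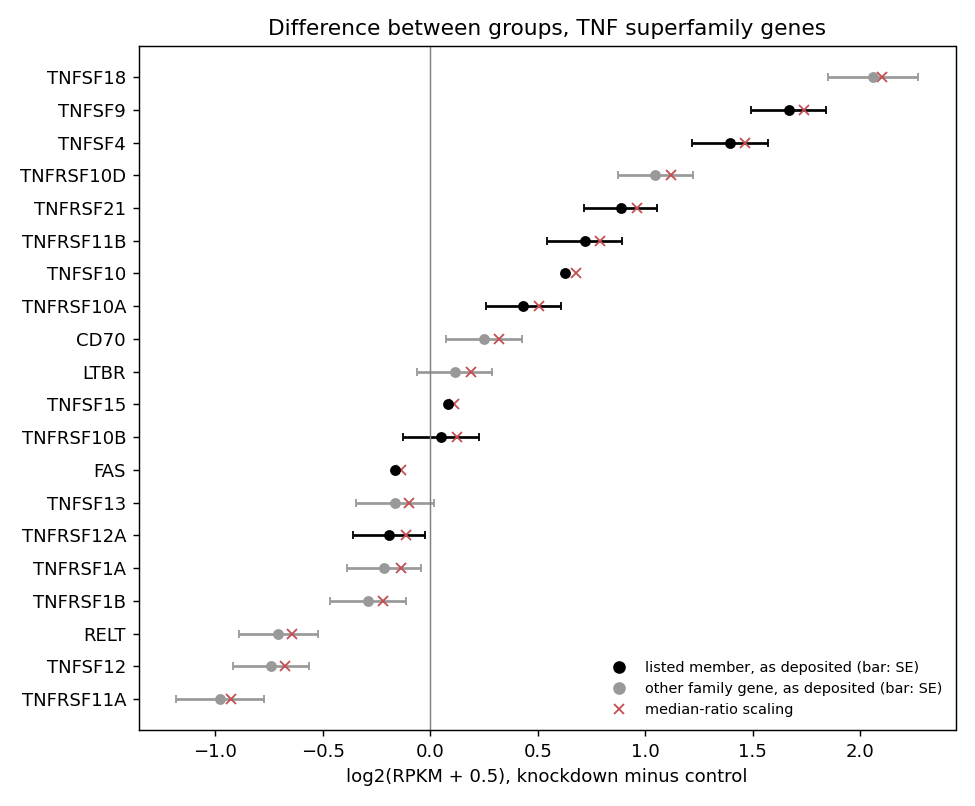
Log2(RPKM + 0.5), knockdown minus control, for the 10 members (black) and the 10 other ligands and receptors with a mean of at least 1 RPKM (grey); bars are SE from limma, and members without a bar were below that level. Crosses give the same after median-ratio scaling.

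The other genes of the family went both ways. Of 47 ligand and receptor genes listed, 41 were in the table; TNF, LTA, LTB, CD40, TNFRSF6B and TNFRSF13C were not analysed here. Of the 31 that are no members, 10 were fitted. Of these, 2 rose, 3 fell and the other 5 missed the threshold, beside 14.7% and 21.8% of all genes fitted. Among these calls, TNFSF18 (higher) and TNFRSF11A (lower) reached the expression limit only through the group where they were high. The median log2 fold change of the 10 genes fitted was −0.19. With median-ratio scaling it was −0.12, with 3 higher and 4 lower calls, beside 4195 and 4114 of 13613 genes. Without either control replicate 2 rose and 2 fell of 9 fitted; of 10, 1 and 3 did without knockdown replicate 1, while dropping replicate 2 gave 1 and 4. TNFSF18, which codes for the GITR ligand and lies next to TNFSF4, rose from 0.107 and 0.202 RPKM to 1.998 and 2.47 RPKM (log2 fold change 2.06 ± 0.21, SE, limma adjusted p = 9.47e-21). That gene rests on few reads, 9 and 17 against 119 and 147; its adjusted p was 0.00085 with median-ratio scaling, and without a knockdown library it was below the expression limit. TNFSF12, the ligand of TNFRSF12A, fell from 4.35 and 4.64 to 2.28 and 2.71 RPKM (limma adjusted p = 0.000212), but did not pass without knockdown replicate 1 (0.101), and 29.4% of its exon bases are shared with the readthrough gene TNFSF12-TNFSF13. RELT, a receptor that signals through stress kinases, fell 1.81-fold (−0.71 ± 0.18, SE, limma adjusted p = 0.000669).

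CD70 (0.25), TNFSF13 (−0.16), TNFRSF1A (−0.21), TNFRSF1B (−0.29) and LTBR (0.11) did not pass. Below the expression limit, and singled out after its values were seen, NGFR, a neurotrophin receptor with a death domain, was at 1.45 and 1.58 RPKM in control cells and at 0.268 and 0.325 RPKM after knockdown (5.1-fold lower). About 252 and 274 against 33 and 40 reads stood behind these values.

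Genes that carry the signal from the receptors were taken from 5 lists, which were also drawn up with earlier results of these data known. Among 60 fitted, 14 rose, 14 fell and the other 32 missed the threshold, beside 14.7% higher and 21.8% lower over all genes fitted. Their median log2 fold change was 0.09. With median-ratio scaling it was 0.16, with 29 higher and 22 lower calls, beside 4195 and 4114 of 13613 genes. With the replicate number as a block, 21 rose and 23 fell, beside 3109 and 4318 of 13627 genes. Counts under these settings in the single lists below stand beside the same counts over all genes. Leaving out control replicate 1 gave 5 higher and 10 lower calls, and leaving out control replicate 2 gave 9 and 7. Dropping knockdown replicate 1 gave 6 and 5, and dropping knockdown replicate 2 gave 5 and 6.

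Among 17 genes of the death-inducing complex and the caspases, 0 rose and 5 fell, beside 14.7% and 21.8% of all genes fitted, with a median of −0.18 (5 higher and 7 lower with median-ratio scaling, 1 and 8 with the replicate number as a block). Lower calls numbered 4 when control replicate 1 was dropped, and 3 when any other library was. MLKL, the effector of necroptosis, fell 3.15-fold (5.51 and 5.62 against 1.69 and 1.85 RPKM, limma adjusted p = 7.87e-14). CRADD, an adaptor for caspase-2, fell 2.08-fold. FADD, the adaptor of the death receptors, fell 1.61-fold (32.3 and 36.9 against 19.7 and 23.2 RPKM, limma adjusted p = 0.000611). The FADD call was lost when control replicate 2 was dropped (0.0955) and when either knockdown replicate was (0.255 for replicate 1, 0.071 for replicate 2), and 54.9% of its exon bases overlap AP000879.1 in GENCODE 29. FAIM (−0.50), an inhibitor of FAS-induced death that is named although outside the naming rule, fell as well, but that call was lost whichever library was dropped (adjusted p from 0.0626 to 0.195). CASP8, the initiator caspase, and CFLAR, its inhibitor, both looked up after the results were known, had log2 fold changes of 0.10 ± 0.18 and 0.12 ± 0.19 (SE) and did not pass. RIPK3, the kinase upstream of MLKL, was listed at 0 in all libraries.

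Among 22 TRAF adaptors and ubiquitin regulators, 6 rose and 3 fell, beside 14.7% and 21.8% of all genes fitted, with a median of 0.13 (12 higher and 7 lower with median-ratio scaling, 10 and 7 with the block). Dropping control replicate 1 left 3 higher and 1 lower; there were 0 lower calls when control replicate 2 (5 higher), knockdown replicate 1 (4) or knockdown replicate 2 (3) was dropped. TRAF1 rose from 0.825 and 1.03 to 2.29 and 2.54 RPKM, 2.60-fold, and TRAF4 rose 2.07-fold (limma adjusted p = 1.16e-06 and 1.6e-07). The inhibitor-of-apoptosis genes BIRC2 and BIRC3, which ubiquitinate RIPK1 at TNF receptors, rose 1.73-fold and 1.95-fold, to 36.8 ± 2.97 and 4.16 ± 0.446 RPKM (SD, n = 2). BIRC2 did not pass without control replicate 1 (adjusted p = 0.06) or knockdown replicate 2 (0.126).

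Of 11 NF-κB subunits, inhibitors and kinases, 4 rose and 2 fell, beside 14.7% and 21.8% of all genes fitted, with a median of 0.37 (7 higher and 4 lower with median-ratio scaling, 6 and 4 with the block). Higher and lower calls numbered 1 and 2 when control replicate 1 was dropped and 3 and 1 for control replicate 2. They numbered 1 and 0 for knockdown replicate 1, and 1 and 1 for knockdown replicate 2. NFKBIA, which codes for the inhibitor IκBα, rose 1.85-fold from 12.5 and 13.6 to 23.7 and 24.5 RPKM (limma adjusted p = 8.32e-06). NFKB2 and RELB, the subunits of the non-canonical pathway, rose 1.65-fold and 1.54-fold, and NFKB1, which codes for the canonical subunit p50, fell 1.78-fold. The NFKB1 call was lost once knockdown replicate 1 was dropped (adjusted p = 0.0909). NFKB2 and RELB passed only while control replicate 1 and both knockdown replicates were kept (adjusted p from 0.0559 to 0.165 without one of them).

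Of 6 genes on the list of TNF-induced proteins, 2 rose and 3 fell, beside the same shares of all genes, with a median of −0.20. TNFAIP1 (0.62) and TNFAIP2 (0.49) rose, and TNFAIP8L1 (−0.78), TNFAIP8 (−0.72) and, outside the naming rule, LITAF (−0.47) fell. A place on this list does not show that TNF induces the gene, and induction by TNF was not measured. The calls of TNFAIP1, TNFAIP2 and LITAF were lost whichever library was dropped (adjusted p from 0.0593 to 0.502), that of TNFAIP8 without knockdown replicate 2 (0.0689) and that of TNFAIP8L1 without knockdown replicate 1 (0.0795). Of 5 genes that act in shedding, 2 rose and 1 fell, beside 14.7% and 21.8% of all genes fitted. Median-ratio scaling gave 3 higher and 1 lower, and the block gave 2 and 1. Fewer were called higher when any single library was dropped. ADAM17, the sheddase that releases TNF and several TNF receptors, rose 2.47-fold from 5.37 and 5.96 to 13.0 and 14.9 RPKM (limma adjusted p = 6.35e-11), with 12.3% of its exon bases shared with IAH1. RHBDF2, which codes for its trafficking cofactor iRhom2, fell 2.37-fold (2.65 and 2.95 against 1.16 and 1.20 RPKM, limma adjusted p = 2.75e-06). ADAM10 rose 1.51-fold but did not pass without any one library (adjusted p from 0.0505 to 0.296), and FURIN (0.12) did not pass.

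**Figure D5:**
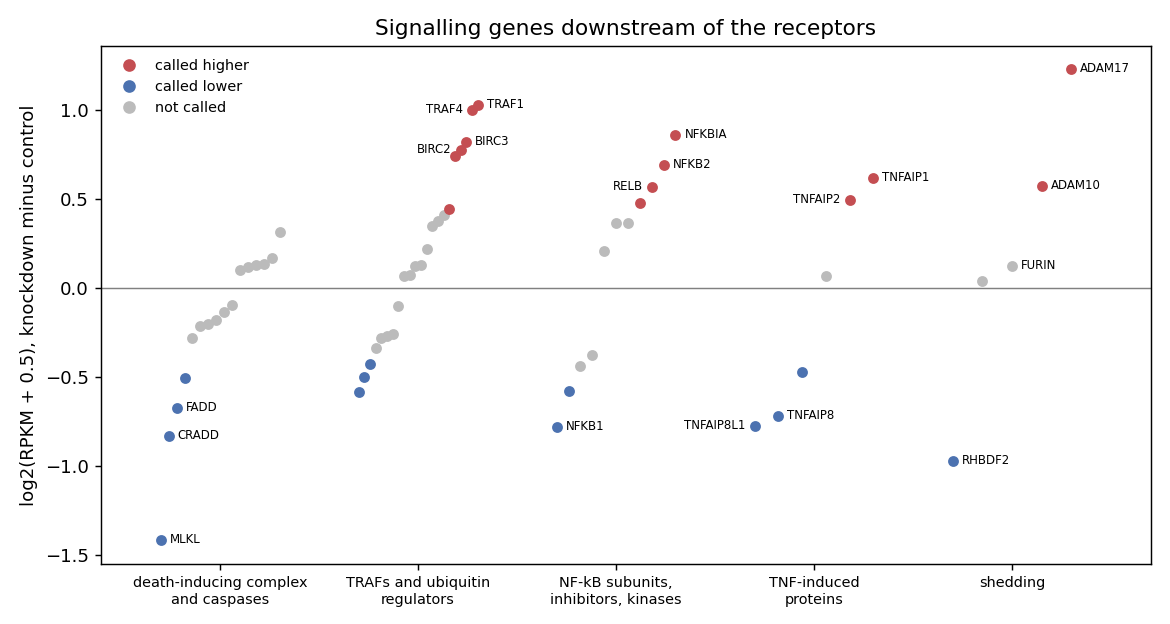
Log2 fold change of the fitted genes reported here from the 5 signalling lists; each point is 1 gene, red and blue points were called higher and lower by limma, and the names are those the naming rule gives. MLKL lies lowest and ADAM17 highest.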

How the data were processed

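The authors deposited 1 table of RPKM values per Ensembl gene, with 1 column per library and 0 columns left unused. The submitters' processing notes name Bowtie 0.12.7 and the build hg19. How genes were counted, the annotation and the scaling total were not given in the sources used. Symbols came from a current table of gene IDs. Low RPKM values fell on steps that, with GENCODE 29 exon lengths, correspond to whole reads within 0.1 read for 83.5% to 83.9% of low values, at read totals of 41.9 M reads in each control library and 29.7 M in each knockdown library. Both libraries of a group thus gave the same total although their summed RPKM differed, so the SD within a group includes a difference in depth. These steps gave the estimated reads, which were used for no test.

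Values were fitted as log2(RPKM + 0.5) with limma 3.58.1 in R 4.3.3 (a group term and trended empirical Bayes variances) over 13627 genes whose mean RPKM reached 1, and p-values were adjusted by Benjamini-Hochberg over all of them at 0.05. limma found no spread of variance between genes beyond the trend, so each SE is the trend's value at that level, not the gene's own. The fit was tried on simulated data, where it gave false calls, all of them at genes with few reads. Calls at genes with few reads, TNFSF18 among them, are therefore less certain than their adjusted p-values. The simulated spread beyond read sampling was set equal for all genes, so the trial does not speak for calls at genes with more reads. An exact permutation test of 2 against 2 libraries cannot go below 0.333 (two-sided), so none was run. The naming rule takes the 10 members, other family genes with a mean of at least 1 RPKM, and up to 4 genes with the smallest p from each signalling list. The members and lists were chosen with earlier results of these data known. Alternatives were other pseudocounts, filters, scaling, variance priors, the replicate block and leaving out each library. Promoter sequences are RefSeq's (GRCh38.p14). Some genes of the lists are counted but not reported here by name.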

Additional observations from a re-analysis of the deposited data

How the results depend on the processing

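Values per library and shares within a library need no model. The gap in the decoy share, 13.7 percentage points, stayed between 13.3 and 14.1 when 1 library was left out, and the median log2 difference of the 10 members between 0.44 and 0.62. Of 70 member values under alternatives, 67 kept their sign; TNFRSF10B without control replicate 1 or knockdown replicate 2 and TNFSF15 without knockdown replicate 1 did not. Counts over all genes (2000 higher, 2964 lower) were 262 and 255 without a filter, 1047 and 1321 where the mean RPKM had to reach 5, 4195 and 4114 with median-ratio scaling, 693 to 1337 higher and 1100 to 1907 lower with 1 library left out. The other family and signalling genes (16 higher, 17 lower of 70) gave 2 and 3 without a filter, 10 and 5 where the mean RPKM had to reach 5, 32 and 26 with median-ratio scaling, and 6 to 11 and 8 to 12 with 1 library left out. With the replicate number as a block, 3109 genes were higher and 4318 lower over all genes, beside 23 and 27 of the 70 family and signalling genes. The labels tie control and knockdown libraries only by that number. With each library's median removed, the replicate differences of the groups correlated at 0.03 across 13627 genes. Removing the median takes out the replicate offset seen in both groups, so this value cannot tell whether libraries share a culture or batch. Without a filter more genes and low values enter the fit; the cause of the other shifts was not tested. The alternative with at least 100 estimated reads (1588 higher, 2527 lower) was chosen after seeing the data. Of 25 named genes outside the list that were called, 21 did not pass without a filter and 11 lost the call without at least 1 library. Precision is limited by 2 libraries per group and, for FAS, TNFSF15 and TNFSF18, by low reads.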

Other observations

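Genes next to the members were looked up in the order of coding genes in RefSeq, 3 on each side, after the values were known. Over all genes fitted, 14.7% were called higher and 21.8% lower. Neighbours of TNFSF4, TNFSF9, TNFRSF12A and the TRAIL receptor genes are given below. Around other members calls also went both ways, such as IFIT2 (1.51) near FAS and TMEM268 (−0.67) near TNFSF15. Around TNFSF4, the neighbours TNFSF18 (2.06), PRDX6, a peroxiredoxin (0.58, limma adjusted p = 0.0032), and SUCO (0.65, adjusted p = 0.00121) rose as well, while FASLG, SLC9C2 and ANKRD45 were at most 0.0192 RPKM. Around TNFSF9, neither CD70 (0.25) nor C3 (0.05) passed, and CRB3, DENND1C, TUBB4A and TNFSF14 were at most 0.188 RPKM. In the cluster of TRAIL receptor genes, TNFRSF10D rose while the flanking genes CHMP7 (0.10) and R3HCC1 (0.13) did not pass and RHOBTB2 fell (−0.69, limma adjusted p = 0.000687). Next to TNFRSF12A, whose groups overlapped, HCFC1R1 (−1.01) and THOC6, of an mRNA export complex (−1.14), both fell (limma adjusted p = 9.66e-08 and 1.55e-09). Whether neighbouring genes move together was not tested.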
